A study of Mus musculus with 6 samples.

Results

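Mitochondrial DNA encodes 13 proteins, all of them subunits of the respiratory chain or of the ATP synthase. Their transcripts were followed in LSK cells, which are sorted from bone marrow as lineage-negative, Sca-1+ and c-Kit+ and hold the haematopoietic stem cells, by taking every non-control probe of the microarray whose gene name in the scanner files is one of these 13 genes. The rule found 11 genes, each with 1 probe, among 56605 probes: *ND1*, *ND2*, *ND3*, *ND4*, *ND4L*, *ND5*, *ND6*, *COX1*, *COX2*, *CYTB* and *ATP8*. No probe carried the name *ATP6* or *COX3*, so these genes are not among the 11. A further 7 probes either list the transcript of one of the 11 genes or are placed on mitochondrial DNA under another name, and they are described separately.

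The study compared LSK cells with and without *Atg5*, a gene needed for autophagy, including the removal of mitochondria by autophagy. RNA of LSK cells sorted from the bone marrow of C57BL/6 mice at P6 to P8 was hybridised to 1-colour Agilent arrays with probes of 60 bases, with 3 arrays per group. The control group was wild type for *Atg5* (Atg5w/w;VaviCre+), and the other group carried floxed *Atg5* (Atg5f/f;VaviCre+, written Atg5f/f;Vav below). Both groups carried VaviCre, a Cre recombinase under the *Vav* promoter that is active across blood cells rather than in LSK cells alone. The sources used here do not say whether an array holds RNA of 1 mouse or of several, so n counts arrays, and p-values measure only the spread between these arrays, which may be technical.

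Signals are given as log2 intensity relative to the 75th percentile of the same array, and a gene was called when its p from limma, adjusted by Benjamini-Hochberg over the 32074 probes tested, was under 0.05. The 75th percentile of intensity was 620.3 to 881.4 over the 6 arrays. The arrays shared 1 slide, but its first row held the control group and its second row the Atg5f/f;Vav group, so row and genotype cannot be told apart. The *Atg5* probe was higher, by 0.54, on the arrays labelled Atg5f/f;Vav (adjusted p = 0.0209, limma). Whether that probe lies in the deleted part was not determined, so it does not check the labels, by which every direction below is given. The study also followed deletion and autophagy by other assays, which were not analysed here.

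Mitochondrial DNA is transcribed from both strands into long precursors. These are cut at the tRNA genes that lie between most of the protein genes, and most of the mRNAs are then given poly(A) tails. Most of the protein genes are read from one strand of the molecule, and *ND6* is read from the other. The amount of each mature RNA therefore depends on processing and decay as well as on transcription. The proteins work only together with many subunits that are encoded in the nucleus and imported, and complex II is built from nuclear-encoded subunits only.

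The probes that carry the main differences are shown as the files give them, 5′ to 3′, with every G in capitals because the base composition separates *ND6* from the other genes. The first 3 belong to the genes that were called, the fourth to *ND6*, and the last pair to *ND4*, whose probes differed in their call.
ND1: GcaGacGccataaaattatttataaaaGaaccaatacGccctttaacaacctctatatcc
ND2: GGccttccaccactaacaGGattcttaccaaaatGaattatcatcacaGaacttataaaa
ND3: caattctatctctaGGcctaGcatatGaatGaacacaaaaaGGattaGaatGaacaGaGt
ND6: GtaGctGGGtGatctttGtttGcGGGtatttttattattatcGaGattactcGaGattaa
ND4, probe of the named gene: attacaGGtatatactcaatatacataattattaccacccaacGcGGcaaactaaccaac
ND4, further probe: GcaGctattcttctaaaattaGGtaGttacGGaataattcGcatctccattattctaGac

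On mm9, the build of the array design, these probes lie on chrM:2898-2957 (*ND1*), chrM:4670-4729 (*ND2*), chrM:13552-13611 (*ND6*), chrM:11370-11429 (*ND4*) and chrM:10860-10919 (further probe of *ND4*). All are on the plus strand except that of *ND6*, which is on the minus strand. The files place the *ND3* probe on chr1:24619613-24619672, minus strand, although its gene name and listed transcript are those of the mitochondrial gene. The nucleus holds copies of stretches of mitochondrial DNA, and a probe cannot tell RNA of such a copy from mitochondrial RNA where the sequence is the same. The *ND6* probe held 15 G and 6 C, whereas the other 10 probes held 4 to 11 G and 10 to 18 C.

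Transcripts of mitochondrial DNA were mostly higher on the arrays labelled Atg5f/f;Vav, but few passed the test. Of the 11 genes, *ND1*, *ND2* and *ND3* were called higher and none was called lower, a share of 27.3%, where 34.4% of all probes tested were called in either direction (17.3% higher and 17.1% lower). The difference was above 0 for 10 of the 11 genes, all but *ND6*, against 45.3% of all probes, and its median over the 11 was 0.37 against −0.06 over all probes tested. The median was 0.086 with quantile normalisation and 0.16 when the 75th percentile was computed from detected probes alone, a scaling that lowered every difference by 0.21. With quantile normalisation *COX2*, *ND4L* and *ND5* were also below 0, and *COX2* was also below 0 with the scaling to detected probes. That scaling gave 3369 calls higher and 10089 lower over all probes, and 1 higher (*ND1*) and 1 lower (*ND6*) among the 11 genes. For 8 of the 11 genes every Atg5f/f;Vav array was above every control array, which held for 27.1% of all probes tested. All 11 probes were well above background on all 6 arrays.

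The number of calls depended on the arrays kept, on the scaling and on the test. Without control replicate 1 or without control replicate 2 none of the 11 genes was called by limma (6 and 3 of them had an unadjusted p under 0.05), but in these fits the calls over all probes also fell, from 11024 to 330 and 251. The median over the 11 genes was 0.39 and 0.29 there. Without Atg5f/f;Vav replicate 2 or replicate 3 only *ND1* was called, and no omission of 1 array gave more than 2 calls. Quantile normalisation left 1 call, that of *ND1*, and lowered *ND2* to 0.28, *ND3* to 0.35, *COX1* to 0.21, *CYTB* to 0.16, *ATP8* to 0.086 and *ND4* to 0.0083. An intensity trend in the variance gave 7.

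**Figure D1:**
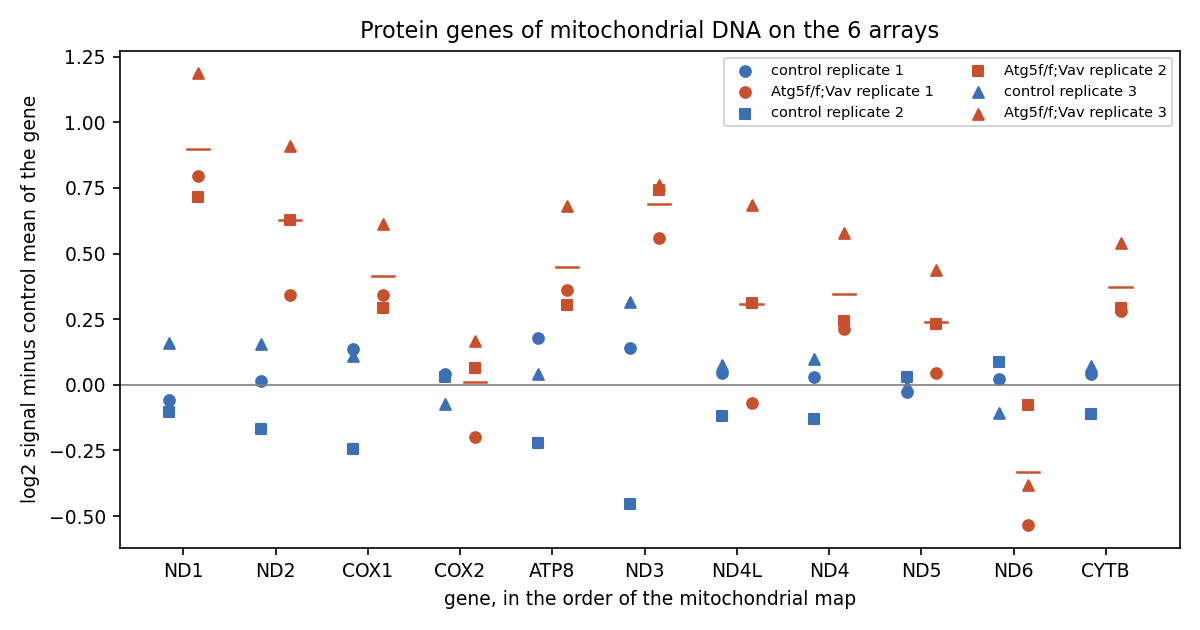
Log2 signal of each gene on each array (y axis) minus the control mean of that gene, for the 11 genes in the order of the mitochondrial map (x axis); blue points are control arrays, red points Atg5f/f;Vav arrays, the symbol gives the replicate, and the red line is the mean of the 3 Atg5f/f;Vav arrays. Atg5f/f;Vav replicate 3 is the highest array for 10 of the 11 genes, and only ND6 lies below the control mean on all Atg5f/f;Vav arrays.

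Complex I, the NADH dehydrogenase that passes electrons from NADH to ubiquinone, takes 7 of the 11 genes. *ND1* encodes a membrane subunit at the joint between the hydrophilic arm and the membrane arm. Control arrays read log2 signals of 2.98, 2.94 and 3.20, and Atg5f/f;Vav arrays read 3.84, 3.76 and 4.23. The groups did not overlap, and each Atg5f/f;Vav array was above the highest control array. The difference was 0.90 (SE 0.16, 95% interval 0.52 to 1.28, adjusted p = 0.0156, limma), a 1.87-fold rise and the largest difference among the 11 genes. It was 0.76 to 0.99 with 1 array left out, and its adjusted p was 0.0673 without control replicate 1 and 0.0697 without control replicate 2.

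*ND2* encodes a subunit of the proton-pumping membrane arm. Control arrays read log2 signals of 5.51, 5.32 and 5.65, and Atg5f/f;Vav arrays read 5.83, 6.12 and 6.40. The groups did not overlap, although the lowest Atg5f/f;Vav array, replicate 1, was close to the highest control array. The difference was 0.63 (SE 0.17, 95% interval 0.22 to 1.03, adjusted p = 0.0331, limma), a 1.54-fold rise. Of the 6 fits that each omit 1 array, *ND2* was called in the one without Atg5f/f;Vav replicate 1.

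*ND3* encodes a small membrane subunit near the quinone site. Control arrays read log2 signals of 5.74, 5.14 and 5.92, and Atg5f/f;Vav arrays read 6.16, 6.34 and 6.36. The Atg5f/f;Vav arrays lay close together and above all control arrays, among which replicate 2 was lower than the rest. The difference was 0.69 (SE 0.21, 95% interval 0.20 to 1.18, adjusted p = 0.0425, limma), a 1.61-fold rise. Without control replicate 2 it was 0.46 with an adjusted p of 0.0889 (limma), and of the 6 fits that each omit 1 array it was called in the one without control replicate 3.

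*ND4* and *ND5* encode the further large subunits of the membrane arm, which pump protons. The log2 signals of *ND4* were 5.53, 5.37 and 5.60 in control and 5.71, 5.75 and 6.08 in Atg5f/f;Vav samples, without overlap. The difference was 0.34 (95% interval 0.01 to 0.68) and did not pass the test (adjusted p = 0.0944, limma). *ND5* read 3.71, 3.77 and 3.73 in control and 3.78, 3.97 and 4.17 in Atg5f/f;Vav samples, and these did not overlap either. Its difference of 0.24 had a 95% interval of −0.07 to 0.54 (adjusted p = 0.184, limma). *ND4L*, a small membrane subunit whose gene overlaps the start of *ND4*, read 5.36, 5.20 and 5.39 in control and 5.25, 5.63 and 6.00 in Atg5f/f;Vav samples. The groups overlapped, since Atg5f/f;Vav replicate 1 was below control replicates 1 and 3, and the difference was 0.31 (95% interval −0.16 to 0.78, adjusted p = 0.246, limma). Without Atg5f/f;Vav replicate 3 the difference was 0.12 for *ND4L*, 0.14 for *ND5* and 0.23 for *ND4*, and without Atg5f/f;Vav replicate 1 that of *ND4L* was 0.50.

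*ND6*, the membrane subunit whose gene lies on the other strand, was the only gene of the 11 with a difference below 0. Control arrays read log2 signals of 1.59, 1.65 and 1.46, and Atg5f/f;Vav arrays read 1.03, 1.49 and 1.19. The groups overlapped, since Atg5f/f;Vav replicate 2 was above control replicate 3. The difference was −0.33 (SE 0.15, 95% interval −0.68 to 0.02, adjusted p = 0.116, limma), which did not pass the test. It was below 0 under all 17 other settings tried, from −0.54 to −0.23, and was called lower under one of them, the scaling to detected probes (adjusted p = 0.0339, limma). Whether the difference of *ND6* differs from those of the other genes was not tested.

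*CYTB* encodes cytochrome b, the subunit of complex III in which ubiquinol is oxidised. Control arrays read log2 signals of 6.85, 6.69 and 6.88, and Atg5f/f;Vav arrays read 7.09, 7.10 and 7.35. Every Atg5f/f;Vav array was above every control array. The difference was 0.37 (SE 0.12, 95% interval 0.08 to 0.66), just short of the threshold with an adjusted p of 0.0552 (limma).

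Complex IV, cytochrome c oxidase, passes electrons to oxygen, and its catalytic core is made of subunits encoded by mitochondrial DNA. *COX1*, which carries the oxygen-reducing site, had log2 signals of 6.96, 6.58 and 6.93 in control and 7.16, 7.12 and 7.44 in Atg5f/f;Vav samples. These did not overlap, and the difference was 0.42 (95% interval 0.05 to 0.78, adjusted p = 0.0736, limma). *COX2*, which takes electrons from cytochrome c, had log2 signals of 8.41, 8.39 and 8.29 in control and 8.16, 8.43 and 8.53 in Atg5f/f;Vav samples. All control arrays of *COX2* lay within the range of its Atg5f/f;Vav arrays, and its difference of 0.01 had a 95% interval of −0.30 to 0.32 (adjusted p = 0.955, limma).

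*ATP8* encodes a small subunit of the membrane part of the ATP synthase, complex V. Control arrays read log2 signals of 4.95, 4.55 and 4.81, and Atg5f/f;Vav arrays read 5.13, 5.07 and 5.45, without overlap. The difference was 0.45 (95% interval 0.08 to 0.83) and did not pass the test (adjusted p = 0.0642, limma). In bulk RNA of sorted cells, a change in the mix of cells and a change in the RNA per cell cannot be told apart, which holds for each of these genes.

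The arrays of a group did not sit at one level. Relative to the control mean of each gene, the median over the 11 genes was 0.04, −0.12 and 0.07 in control and 0.28, 0.29 and 0.61 in Atg5f/f;Vav samples. Control replicate 2 was the lowest of the 6 arrays for 8 of the 11 genes, and Atg5f/f;Vav replicate 3 was the highest for 10. The exception was *ND6*, which was highest on control replicate 2.

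Further probes, which carry other transcript names but list the transcripts of 3 of the genes, gave a second reading of these genes. The further probe of *ND4* starts at base 693 of the transcript, upstream of the first, which starts at base 1203. Control arrays read log2 signals of 4.57, 4.33 and 4.63, and Atg5f/f;Vav arrays read 5.02, 4.96 and 5.32. The groups did not overlap, and the difference of 0.59 was called (SE 0.15, 95% interval 0.25 to 0.94, adjusted p = 0.0252, limma), whereas that of the other *ND4* probe was not. The 95% intervals of both probes overlap, and the difference between the probes was not tested.

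The further probe of *ND4L* is shifted by 3 bases and shares 57 of its 60 bases with the first, so it is a repeat of the same measurement. It gave 0.25 (95% interval −0.19 to 0.68), close to the 0.31 of the first. The further probe of *COX1*, which the files place on chr2:22443786-22443845, gave 0.10 (95% interval −0.18 to 0.38) with overlapping groups, against 0.42 for the first. Whether the *COX1* probes differ was not tested.

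The other 4 probes on mitochondrial DNA are named for other transcripts. The probe named for *Gm10925*, a predicted gene for which the RefSeq table of GRCm38.p6 lists mt-Atp6 as a synonym, lies on chrM:7965-8024, and its difference was 0.39 (95% interval 0.05 to 0.74, adjusted p = 0.0746, limma) without overlap. The probe named for *Gm28437*, on chrM:9072-9131, gave 0.14 (95% interval −0.12 to 0.40). Both lie between the probes of *ATP8* and *ND4L*, on the stretch of the map that holds *ATP6*, *COX3* and *ND3* in this order. Upstream of *ND1*, on the side of the map where the ribosomal RNA genes lie, the cDNA AK140265 on chrM:598-657 gave −0.05 and the antisense RNA GU332589 on the minus strand of chrM:1155-1214 gave −0.15. Neither passed the test in limma, with adjusted p of 0.772 and 0.494.

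**Figure D2:**
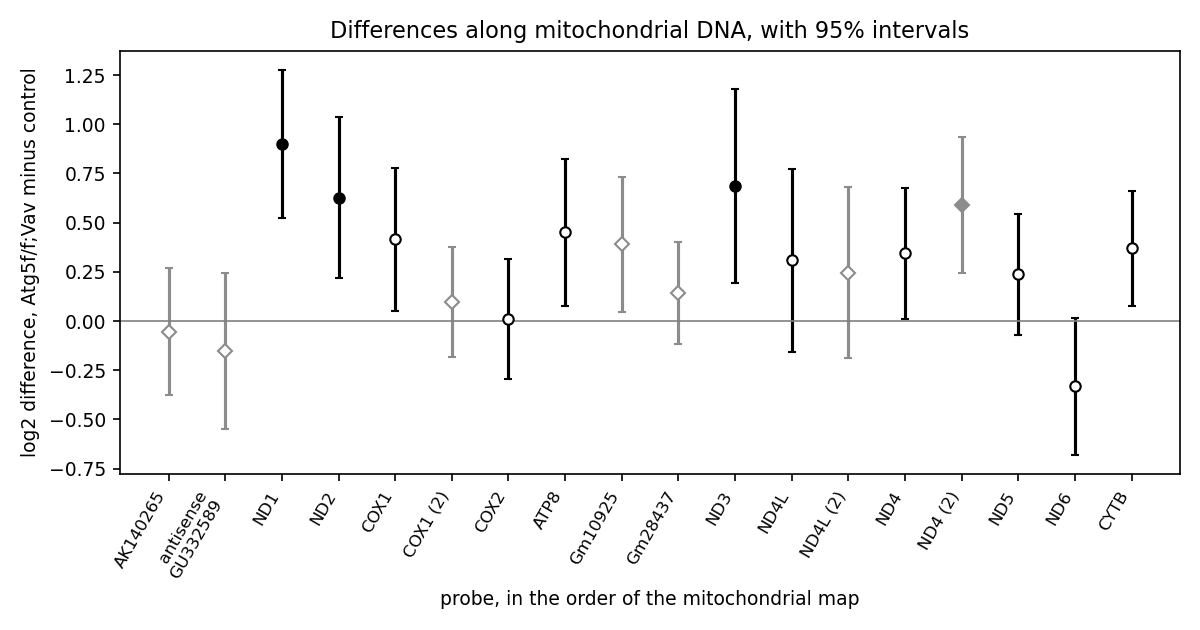
Log2 difference, Atg5f/f;Vav minus control (y axis), with its 95% interval for each of the 18 probes, by gene in the order of the mitochondrial map (x axis). A second probe of a gene, marked (2), is drawn after the first whatever its position. The probes placed on chr1 (ND3) and chr2 (second probe of COX1) stand at their genes. Black circles are the probes of the 11 genes, grey diamonds further probes, and filled symbols passed an adjusted p of 0.05. The filled symbols are ND1, ND2, ND3 and the second probe of ND4, and ND6 and the probes upstream of ND1 lie below 0.

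The nuclear-encoded partners of these proteins were mostly called higher. Of 75 listed subunits of the respiratory complexes 74 were tested, each by its brightest probe. Among these, 66 (89.2%) were called higher and none lower, where 17.3% of all probes tested were called higher. The median difference of the 74 was 0.57, with a range of 0.10 to 0.91. The groups did not overlap for 73 of them, all higher, against 27.1% of all probes tested. The mean over the probes of a gene gave 56 called higher and none lower, with a median of 0.54. Some subunits had another probe below 0, in complexes I, II, III and V. The lowest was −0.42 for *Sdha* in complex II and −0.22 for *Uqcrb* in complex III, and values for complexes I and V are given below. Without control replicate 1 or 2 none of the 74 was called by limma, while 66 had an unadjusted p under 0.05 in each fit and the medians stayed at 0.55 and 0.52. Quantile normalisation gave 19 calls and a median of 0.23. On the Atg5f/f;Vav arrays the median over these subunits, relative to their control means, was 0.46, 0.52 and 0.72 for replicates 1, 2 and 3, again highest on replicate 3. Whether nuclear and mitochondrial genes differ in their response was not tested.

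Within complex I, 33 of 36 nuclear-encoded subunits were called higher, with a median difference of 0.57, against 3 of 7 genes and a median of 0.34 for the mitochondrial ones. The largest nuclear differences were those of *Ndufb6* (0.82), *Ndufv1* (0.78), which binds NADH, and *Ndufs6* (0.74). By the brightest probe of each gene, the difference of *ND1*, 0.90, was above those of all 36 nuclear-encoded subunits, and that of *ND6* was below all of them. Complex I thus held both the highest and the lowest of the mitochondrial genes. The comparison with the nuclear-encoded subunits rests on the probe chosen. Another probe of *Ndufab1* was above *ND1*. Other probes of *Ndufb2* (down to −1.18), *Ndufa13* (−0.67) and *Ndufv2* (−0.63) were below *ND6*.

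In complex III, *Uqcrq* (0.91), *Cyc1* (0.88), which encodes cytochrome c1, and *Uqcr11* (0.75) led 8 of 9 nuclear-encoded subunits called higher, and the difference of *CYTB* was smaller than that of 8 of the 9. In complex IV, 8 of 10 were called higher, led by *Cox7c* (0.82), *Cox5a* (0.71) and *Cox7b* (0.64), and 8 of the 10 had a larger difference than *COX1*. In complex V, 14 of 15 were called higher, among them *Atp5b* (0.75), the catalytic beta subunit, and *Atp5g1* (0.84) and *Atp5g3* (0.73), which encode the same ring subunit of the rotor. Other probes of *Atp5g1* ranged down to −0.17 and another probe of *Atp5g3* gave −0.06, so these values rest on the probe chosen. The same holds for *Atp5j*, *Atp5j2* and *Atp5f1*, whose lowest other probes gave −0.57, −0.34 and −0.21. The difference of *ATP8* was smaller than that of 12 of the 15. Complex II, succinate dehydrogenase, had 3 of 4 subunits called higher: *Sdhd* (0.81), *Sdhb* (0.69) and *Sdhc* (0.47).

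**Figure D3:**
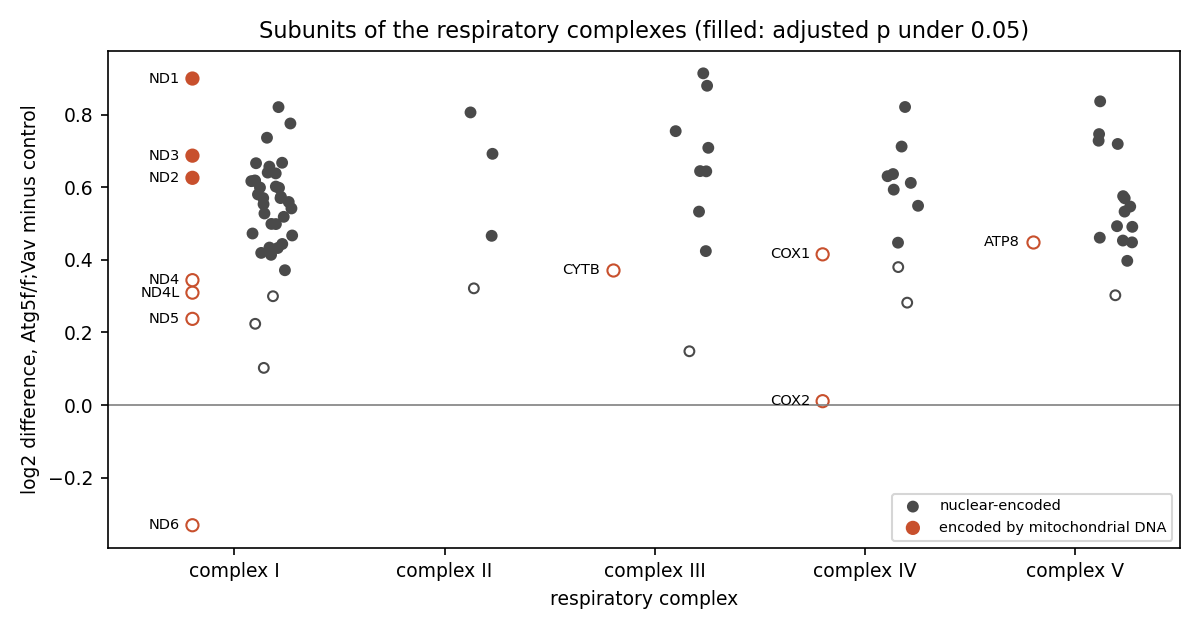
Log2 difference, Atg5f/f;Vav minus control (y axis), of the mitochondrial (red) and nuclear-encoded (grey) subunits of each respiratory complex (x axis); each point is 1 gene, filled where the adjusted p was under 0.05. In complexes III, IV and V the mitochondrial genes lie below the nuclear medians of 0.64, 0.60 and 0.53, and in complex I they spread from −0.33 to 0.90.

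Genes that copy, transcribe, process and translate mitochondrial DNA are encoded in the nucleus, and 68 of 70 listed were tested. Of these, 33 (48.5%) were called higher and none lower, where 17.3% of all probes tested were called higher and 17.1% lower. The median difference was 0.37. The scaling to detected probes gave 21 higher and 6 lower with a median of 0.16, and the mean over the probes of a gene gave 25 and 3. Without control replicate 1 or 2 none was called by limma (34 and 35 had an unadjusted p under 0.05), with medians of 0.37 and 0.34. Processing and stability of mitochondrial RNA had 15 of 24 genes (62.5%) called higher. They included *Rexo2* (1.11), an exonuclease that degrades short RNAs, *Elac2* (0.91), which cuts the 3′ ends of tRNAs out of the precursor, and *Wbscr16* (0.88). *Lrpprc*, whose product stabilises mitochondrial mRNAs, was called higher by 0.75, and its other probes gave 0.35 at the lowest.

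Translation and insertion of the proteins had 12 of 20 genes called higher, among them the elongation factors *Tsfm* (0.97) and *Gfm1* (0.97) and the assembly factor *Coa5* (0.87). Transcription had 3 of 11: *Mrpl12* (1.13), a protein of the mitochondrial ribosome that also binds the mitochondrial RNA polymerase, the elongation factor *Tefm* (0.53) and *Polrmt* (0.45), the polymerase itself. *Tfam*, which packs mitochondrial DNA and starts transcription, had a difference of 0.29 with overlapping groups and did not pass the test (adjusted p = 0.146, limma). The other probe of *Tfam* gave 0.43. Replication had 3 of 13 called higher, *Rnaseh1* (0.66), *Top1mt* (0.49) and *Top3a* (0.42), and a median of 0.05. The shares called in transcription (27.3%) and replication (23.1%) were not far from the 17.3% called higher over all probes tested. Both were below the 34.4% called in either direction. Other probes of *Top3a* ranged from −0.23 to 0.86. Mitochondrial DNA itself was not measured here.

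The genes whose pattern over the 6 arrays lay closest to the mean pattern of the 11 mitochondrial genes were *Ak3*, *Rps6kc1*, *Hsd17b7*, a noncoding transcript named for a region of chromosome 17, and *Acp1*. Closeness was the root mean square of the differences between both patterns in log2 signal, each centred on its own mean, and it was 0.0196 to 0.0310 for these among 18364 genes. Their differences between the groups were 0.34 to 0.41. The pattern they were chosen by includes the difference between the groups, so these values follow from the choice and are no separate result. *Ak3* encodes an adenylate kinase of the mitochondrial matrix, and its difference was 0.36.

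Markers of the sorted cells and of others that a sort could carry along moved with the groups. All 10 LSK markers were well above background on all arrays, of which *Ly6a* (Sca-1) was called higher and *Mecom*, *Hlf*, *Procr* and *Meis1* lower, and their summed signal, as a multiple of the array's 75th percentile, was 168 to 176 on the control arrays and 98.3 to 166 on the others. Of 10 erythroid markers, *Car1*, *Klf1*, *Tfrc* and *Epor* were called higher and *Slc4a1*, *Hba-a1*, *Alas2* and *Hbb-b1* lower, with sums of 236 to 525 and 94.1 to 146. Of 10 neutrophil markers, *Mpo*, *Prtn3* and *Ctsg*, which are active early in the lineage, were called higher and 6, among them *Ltf*, *S100a8* and *Lcn2*, lower, with sums of 183 to 301 and 245 to 304. The 6 megakaryocyte markers had *Itga2b* called higher and *Ppbp*, *Gp9* and *Vwf* lower. Few markers of the next lineages were called, in shares below that over all probes tested. These were *Cd79a*, higher, of 8 B cell markers and *Lyz2*, lower, of 5 macrophage markers tested, and none of 6 T and NK cell markers tested. Of 7 stromal markers tested, *Col1a1*, *Col1a2* and *Sparc* were called lower. The stromal sum was 9.97 to 40.1 on the control arrays and 5.57 to 8.86 on the others, and *Cd3g*, *Cd8a* and *Col3a1* were well above background on no array.

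RNA quality was read from 3434 pairs of probes on the same transcript at least 500 bases apart. The median of the upstream minus the downstream log2 signal was −2.27, −2.23 and −2.39 in control and −2.51, −2.40 and −2.38 in Atg5f/f;Vav samples, with a median difference between the groups of −0.10. The part of the markers and of RNA quality in the differences of the mitochondrial genes was not tested.

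**Figure D4:**
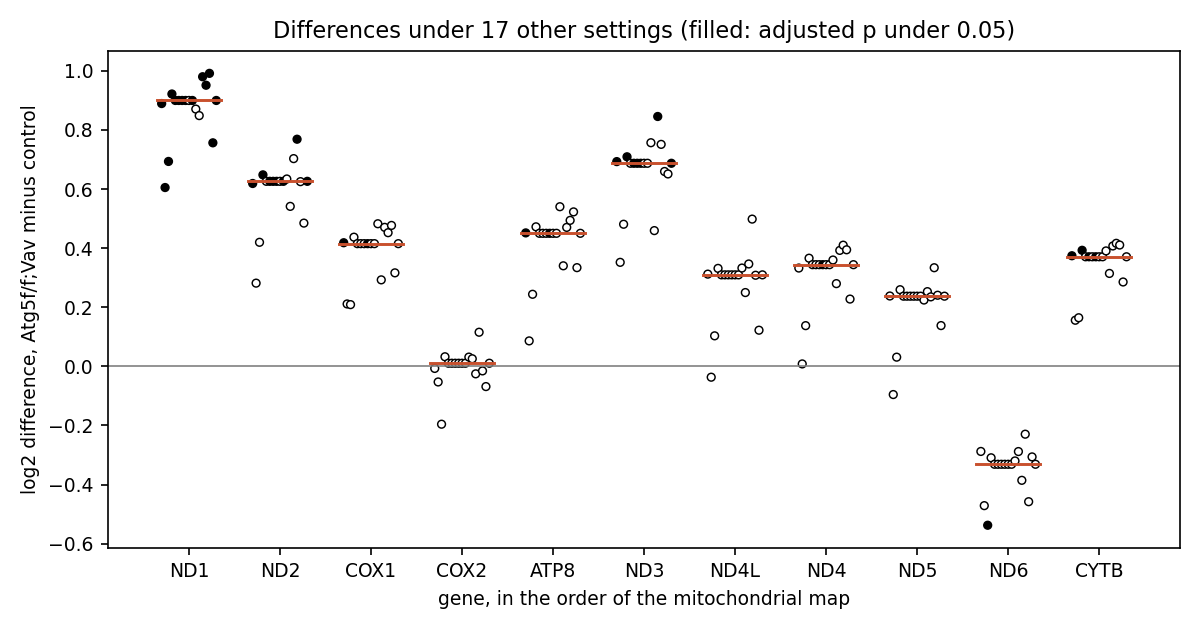
Log2 difference, Atg5f/f;Vav minus control (y axis), of each of the 11 genes (x axis) under 17 other settings (points: background correction, scaling, filters, tests, the replicate block and each array left out), with the value given in the text as a red line; filled points have an adjusted p under 0.05. ND1 stays between 0.61 and 0.99 and ND6 between −0.54 and −0.23, whereas COX2, ND4L and ND5 have points on both sides of 0.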

How the data were processed

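Total RNA of LSK cells was labelled with Cy3 by the authors and read by Agilent Feature Extraction 12.0.3.1. The deposited scanner files hold 1 processed intensity per spot, background-corrected and not scaled between arrays. The deposited value table holds a linear normalised signal, and the ratio of intensity to this signal varied by at most 0.000267% within an array. Its scale is therefore a constant per array, with no centring of genes. Groups and replicate numbers follow the sample labels.

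The intensity of a spot was divided by the 75th percentile of the 59305 non-control spots of its array and put on the log2 scale. Spots flagged as outliers (64 to 81 per array) were left out, no spot was saturated, and spots of a probe were averaged. A probe entered the test when 3 or more of the 6 arrays had it well above background, which held for 32074 of 56605 probes. Groups were compared by 2-sided limma (3.58.1, R 4.3.3) with Benjamini-Hochberg adjustment. A check on simulated arrays used changes larger than those of the mitochondrial genes and in few probes. It does not cover differences of the size of those genes. SE and 95% intervals are those of limma. The number of arrays limits the precision.

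Every mitochondrial gene was named with its value. Of the other lists, at most 3 called genes per list with the largest differences were named, together with *Polrmt*, *Tfam* and *Lrpprc*. Where a gene of these lists had several probes, the brightest on average stood for it. The genes and lists were chosen with earlier results of these data known, and the check of probe pairs was added later. Alternatives were each array left out, the replicate block, the methods' t-test, an intensity trend, normexp (offset 50), quantile normalisation, a 75th percentile from detected probes, the deposited signal, no filter on dim probes or one on all 6 arrays, outliers kept, and the mean over probes of a gene.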

Additional observations from a re-analysis of the deposited data

How the results depend on the processing

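The number of mitochondrial genes called was 3 in the values given above. It was 6 with normexp, 1 with quantile normalisation, 2 with the 75th percentile over detected probes, 4 with the deposited signal, 1 without a filter, 4 with the filter on all 6 arrays, 3 with outliers kept, 7 with an intensity trend, 3 with the mean over probes, and 0 to 2 with 1 array left out. After Benjamini-Hochberg adjustment, the methods' test called none of these genes, none of the 74 nuclear subunits, none of the 68 expression genes and none of all probes, while 4, 73, 48 and 13541 had an unadjusted p under 0.05. The 66 calls among nuclear subunits became 19 with quantile normalisation, 31 without a filter, 56 with the mean over probes, and 0 to 67 with 1 array left out. The 33 calls among the expression genes became 16 without a filter and 0 to 29 with 1 array left out. Over all probes the 11024 calls became 4538 without a filter and 251 to 10303 with 1 array left out.

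The sign turned for *COX2* with normexp (−0.0069), quantile normalisation (−0.053) and the percentile over detected probes (−0.20), and its range with 1 array left out was −0.068 to 0.12. With quantile normalisation it also turned for *ND4L* (−0.037), *ND5* (−0.10), the further probe of *ND4L* (−0.13) and AK140265 (0.0031), whose highest value with 1 array left out was 0.056. With the percentile over detected probes, which lowered all differences by 0.21, it turned for the further probe of *COX1* (−0.11) and the *Gm28437* probe (−0.064).

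Arrays with the same replicate number had correlations of −0.07, 0.19 and 0.11 between their deviations from the group means, so the numbers were not taken as pairs. With the replicate block 2 of the 11 mitochondrial genes were called, and *ND3* was not (adjusted p = 0.0625, limma). All 11 genes lay well above background on all 6 arrays.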
